A study of Mus musculus with 3 samples.

Results

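Focal adhesions are the sites at which integrins, the receptors of the cell for extracellular matrix, are coupled to the actin cytoskeleton. Talin and kindlin bind the integrin tail and switch the receptor on, vinculin and α-actinin carry the force to actin filaments, the LIM-domain adaptors paxillin and zyxin recruit signaling proteins, focal adhesion kinase (FAK) signals from the site, and integrin-linked kinase (ILK) forms with PINCH and parvin a scaffold that steadies the link. In the gastrulating mouse embryo, cells use these proteins to hold on to the basement membrane of the epiblast and, as mesoderm, to migrate over matrix. The 10 genes described here, *Tln1*, *Fermt2*, *Vcl*, *Actn1*, *Pxn*, *Zyx*, *Ptk2*, *Ilk*, *Lims1* and *Parva*, were chosen by symbol as encoding proteins that connect integrins to actin. The rule holds no measured value, but the genes were chosen with earlier results of these data known. All 10 were found among the 23421 genes of the expression table.

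The table holds 3 RNA-seq libraries, 1 for each genotype: wild type, tw18/+ (heterozygous) and tw18/tw18 (homozygous). All came from E6.5 embryos, labelled as of the 129/SvEv strain, produced by crossing tw18/+ parents. The study proposes that non-inbred backgrounds, unlike between embryos, might account for the variation it saw in the mutant phenotype. The tw18 chromosome is a *t* haplotype that carries a large deletion on Chr 17 including *Ppp2r1a*, the gene for the scaffold subunit of protein phosphatase 2A. The labels name the tissue as epiblast, whereas the study describes the embryo proper, epiblast with the visceral endoderm around it, and the number of embryos pooled per library is not given in the sources used here. With 1 library per genotype no difference has a replicate check, and no p-value is given.

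Values are FPKM, in which the fragments on a gene are scaled to transcript length and library size, so levels can be compared between genes. *Ppp2r1a* had FPKM values of 146 in wild type, 81.7 in tw18/+ and 12.8 in tw18/tw18, in the order of the labels. The value in tw18/tw18 was not 0, although the deletion includes this gene, and stood for about 594 fragments by the estimate that follows. Of the stretches of 50 bases in its transcripts, 0.085% occur in another gene. Where these fragments came from was not tested, so RNA of another genotype in the tw18/tw18 library cannot be told apart from other sources. From the spacing of low values, 1 fragment on 1 kb was worth an estimated FPKM of 0.0681 in wild type, 0.0485 in tw18/+ and 0.0485 in tw18/tw18, so that each mutant library was about 1.4 times as deep as wild type. The intervals given below are 95% exact intervals for counting error on fragment numbers estimated in this way. They do not cover the spread between embryos, and fragments copied by PCR are not independent molecules.

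None of the 10 genes lies on Chr 17 (GRCm38, GENCODE M21). Promoter windows from RefSeq (GRCm38.p6), reaching from 250 bases before to 50 bases after a transcription start, were matched for 7 of the 10 genes, with 10 windows in all, and not for *Pxn*, *Ptk2* and *Parva*. They were searched for the CArG box, the recognition motif of serum response factor (SRF), a regulator of many cytoskeletal genes, for GGAATG, the core of the TEAD motif, and for GGGCGG, the GC box, all on both strands and with overlapping matches counted. The CArG box occurred in 2 of the 10 windows, those of *Vcl* and *Fermt2*, against 1.63% of all 32851 windows. GGAATG occurred in 1 window, that of *Vcl*, against 14.7% of all windows, and GGGCGG in 6, against 35.7%. A match is a match of letters in this window and does not show binding. The stretches with the CArG boxes, and for comparison that of *Actn1*, which had GC boxes and no CArG box, are shown 5′ to 3′ on the strand of the gene. Capitals mark the motifs.
Vcl, chr14:20929158-20929302, plus strand, with the CArG box 227 bases before the start, then GGAATG and GC boxes: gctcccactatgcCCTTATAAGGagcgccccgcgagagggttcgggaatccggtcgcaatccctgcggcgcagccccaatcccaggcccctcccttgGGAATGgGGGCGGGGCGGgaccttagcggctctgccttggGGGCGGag
Fermt2, chr14:45530181-45530280, minus strand, with the CArG box 204 bases before the start, then a GC box: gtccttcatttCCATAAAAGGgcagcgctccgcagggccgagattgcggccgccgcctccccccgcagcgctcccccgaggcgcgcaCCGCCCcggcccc
Actn1, chr12:80260394-80260483, minus strand, with GC boxes 48 and 42 bases before the start: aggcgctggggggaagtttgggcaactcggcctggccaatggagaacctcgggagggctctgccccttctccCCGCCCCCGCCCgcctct

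All 10 genes were expressed in every library. In wild type their FPKM spanned 12.8-fold, from 6.46 for *Parva* to 82.5 for *Zyx*, with a median of 29.3, and the order from high to low was *Zyx*, *Ilk*, *Actn1*, *Lims1*, *Fermt2*, *Vcl*, *Ptk2*, *Tln1*, *Pxn* and *Parva*. Of the genes that reached an FPKM of 1 in wild type, 7.07% had a higher value than *Zyx* and 63.8% a higher value than *Parva*. In tw18/+ the order was the same except that *Vcl* stood above *Fermt2*, with a median of 31.0. In tw18/tw18 the median was 39.1 and the span was 5.13-fold, from 18.5 for *Parva* to 94.9 for *Zyx*. There *Actn1* stood above *Ilk*, *Fermt2* and *Vcl* above *Lims1*, and *Tln1* above *Ptk2*. The values of *Lims1*, *Fermt2* and *Vcl* lay within 31.6 and 28.6 in wild type, and without replicates the order of such neighbours cannot be called. The genes with the lowest levels in wild type, *Parva*, *Pxn* and *Tln1*, were those with the largest ratios in tw18/tw18. The same wild-type value is the denominator of each ratio, so level and ratio are not independent.

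**Figure D1:**
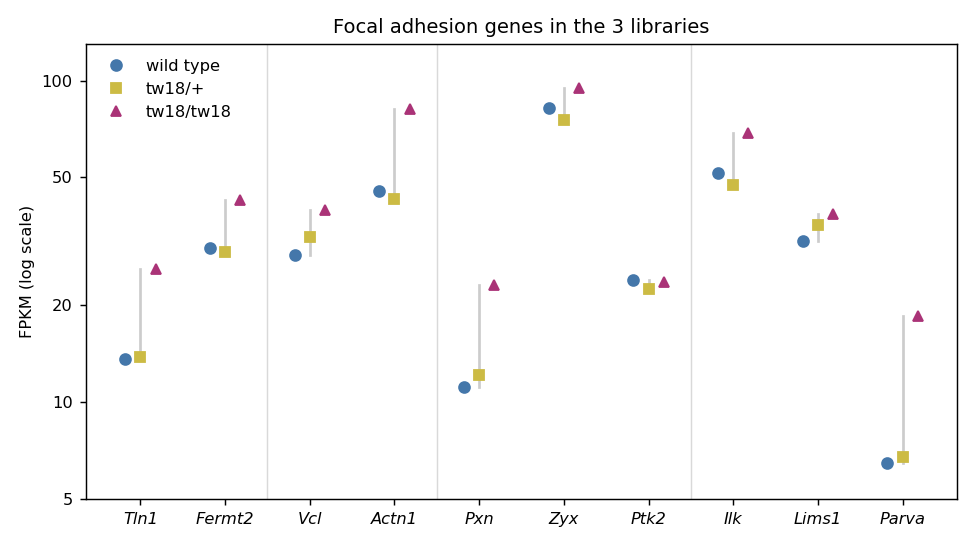
FPKM (log axis) of the 10 focal adhesion genes in the wild type, tw18/+ and tw18/tw18 library, 1 point per library, with grey lines from the lowest to the highest value and genes ordered by role. The wild-type and tw18/+ points lie close together for every gene, and the tw18/tw18 point is the highest of the 3 for 9 genes, all but *Ptk2*.

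Between tw18/tw18 and wild type, 9 of the 10 genes were higher in tw18/tw18 and *Ptk2* was nearly level, with log2 ratios from -0.02 to 1.52 and a median of 0.49. Over the 11069 genes that reached an FPKM of 1 in all 3 libraries, the median log2 ratio was -0.05, and all 10 genes lay above it. A log2 ratio of at least 1, the threshold used by the study, was reached by 2 of the 10 genes, *Parva* and *Pxn*. This rule called 15.1% of all 12917 genes tested as higher, and 6.79% of those whose higher value of the pair was at least 10, as it was for each of the 10 genes. No member was lower by as much, against 6.94% of all genes. At a log2 ratio of at least 0.5, 5 of the 10 were higher, *Parva*, *Pxn*, *Tln1*, *Actn1* and *Fermt2*, against 26.7% of all genes and 16.3% of those with a value of at least 10. Rescaling the libraries to equal FPKM sums would raise every log2 ratio of tw18/tw18 against wild type by 0.21, genes at the median of the table included, so the values given here are best read against that median. With this rescaling, 79.8% of all calls between tw18/tw18 and wild type were in the higher direction, against 68.5% on the deposited scale.

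Between tw18/+ and wild type the 10 genes had log2 ratios from -0.13 for *Zyx* to 0.19 for *Vcl*, with a median of -0.003, 5 above and 5 below 0. None reached 1 in either direction, against 4.70% of all genes higher and 5.02% lower. Among genes whose higher value of the pair was at least 10, as for every member but *Parva*, these shares were 0.527% and 1.01%. None reached 0.5 in either direction, against 24.0% of all genes. That share includes genes of low FPKM and was not computed for genes with a value of at least 10. Against tw18/+, the tw18/tw18 library was higher for 10 of 10 genes, with log2 ratios from 0.07 for *Ptk2* to 1.45 for *Parva* and a median of 0.54. *Parva* passed a log2 ratio of 1 here, against 14.9% of all genes, and no member was lower by as much, against 5.65%. There were 6 genes past 0.5, against 27.1%. The comparisons of tw18/tw18 share that library and are not independent of each other.

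**Figure D2:**
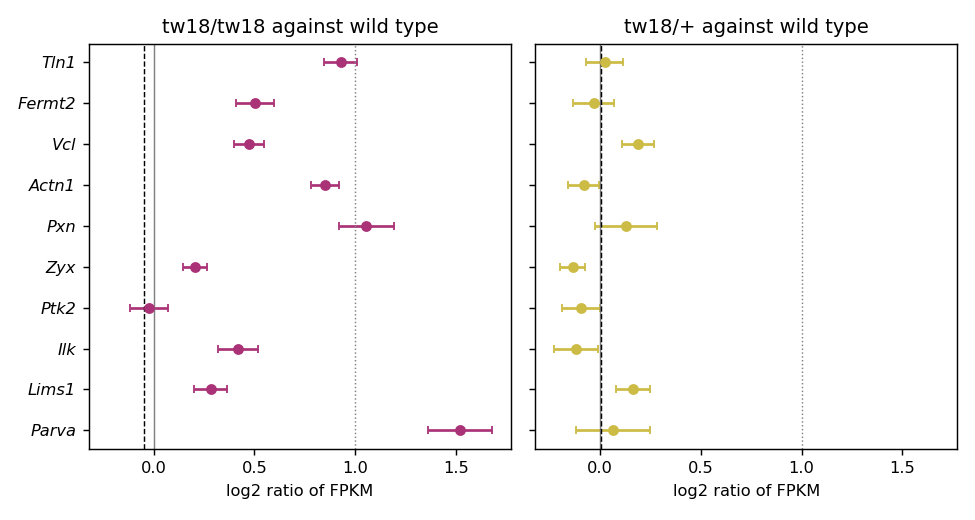
Log2 ratio of FPKM of the 10 genes in tw18/tw18 (left) and tw18/+ (right) against wild type. Bars are 95% intervals for counting error only, the dashed line is the median over 11069 genes, the solid grey line marks 0 and the dotted line a log2 ratio of 1. In tw18/tw18 the points run from -0.02 for *Ptk2* to 1.52 for *Parva*, while in tw18/+ all lie between -0.13 and 0.19.

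Among the activators of integrins, *Tln1* (Chr 4, 43531519 to 43562691, minus strand) encodes talin-1, the rod-shaped protein that binds integrin β tails, vinculin and actin. Its FPKM was 13.6 in wild type, 13.9 in tw18/+ and 25.9 in tw18/tw18, from about 1648, 2356 and 4402 fragments. The wild-type and heterozygous values were nearly equal, and the homozygous value was 1.90 times that of wild type, giving a log2 ratio of 0.93 (0.85 to 1.01). *Fermt2* (Chr 14, 45458795 to 45530118, minus strand) encodes kindlin-2, the partner of talin in integrin activation outside blood cells. Its FPKM was 30.1, 29.4 and 42.6 in the same order, giving a log2 ratio of 0.50 (0.41 to 0.60) in tw18/tw18. The 2 genes thus stood highest in the homozygous library, *Tln1* by more than *Fermt2*, and the ratio of *Fermt2* to *Tln1* was 2.21 in wild type, 2.12 in tw18/+ and 1.64 in tw18/tw18.

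The actin linkers differed in the size of their ratios. *Actn1* (Chr 12, 80167547 to 80260371, minus strand) encodes α-actinin-1, which crosslinks actin filaments and ties them to integrins and vinculin. Its FPKM was 45.4 in wild type, 43.0 in tw18/+ and 81.9 in tw18/tw18, from about 2388, 3175 and 6046 fragments, giving a log2 ratio of 0.85 (0.78 to 0.92). *Vcl* (Chr 14, 20929398 to 21033676, plus strand) encodes vinculin, which binds stretched talin and reinforces the link to actin. Its FPKM was 28.6, 32.6 and 39.7, giving a log2 ratio of 0.47 (0.40 to 0.55) in tw18/tw18 and of 0.19 (0.11 to 0.27) in tw18/+, the largest of the 10 genes in the heterozygous library. *Vcl* thus had its lowest value in wild type and its highest in tw18/tw18, with tw18/+ between them, whereas *Actn1* was near level in wild type and tw18/+. Exons of *Ap3m1*, on the opposite strand, overlap 25.5% of the exon bases of *Vcl*, and *Ap3m1* had FPKM values of 19.5, 23.2 and 22.4.

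Of the LIM adaptors and FAK, *Pxn* (Chr 5, 115506676 to 115555987, plus strand) encodes paxillin, a docking protein for FAK, vinculin and ILK. Its FPKM was 11.1 in wild type, 12.1 in tw18/+ and 23.1 in tw18/tw18, from about 580, 891 and 1690 fragments. The homozygous value was 2.08 times that of wild type, giving a log2 ratio of 1.05 whose counting interval, 0.92 to 1.19, spans the threshold of 1. With a pseudocount of 1 it was 0.99, and against tw18/+ 0.93. *Zyx* (Chr 6, 42349630 to 42360213, plus strand) encodes zyxin, which gathers at adhesions under tension and recruits Ena/VASP proteins. Its FPKM was 82.5, 75.2 and 94.9, giving a log2 ratio of 0.20 (0.14 to 0.26) in tw18/tw18 and of -0.13 (-0.20 to -0.07) in tw18/+. The differences of *Zyx* were small in both directions. *Ptk2* (Chr 15, 73205102 to 73423280, minus strand) encodes FAK, the tyrosine kinase that binds paxillin and signals through SRC. Its FPKM was 24.0, 22.5 and 23.6, giving a log2 ratio of -0.02 (-0.12 to 0.07) in tw18/tw18. Its sign turned when the libraries were centred on the median log2 ratio (0.02) and under the other scalings, so no direction is given for *Ptk2*. The ratio of *Ptk2* to *Pxn*, kinase to docking protein, was 2.16 in wild type, 1.85 in tw18/+ and 1.02 in tw18/tw18.

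The log2 ratios of the 3 genes of the ILK-PINCH-parvin complex ran from 0.28 to 1.52 in tw18/tw18. *Parva* and *Lims1* are each only a part of their family. With paralogs the parvin sum was 29.2 in wild type, 31.4 in tw18/+ and 43.7 in tw18/tw18. The PINCH sum was 32.9, 37.9 and 45.1 in the same order. Between tw18/tw18 and wild type the parvin sum differed less than *Parva* alone, whereas the PINCH sum differed more than *Lims1* alone. *Ilk* (Chr 7, 105736592 to 105742925, plus strand) encodes integrin-linked kinase, a scaffold with a kinase-like fold. Its FPKM was 51.5 in wild type, 47.4 in tw18/+ and 68.7 in tw18/tw18, giving a log2 ratio of 0.42 (0.32 to 0.52). *Lims1* (Chr 10, 58323466 to 58424691, plus strand) encodes PINCH-1, built of LIM domains, and had FPKM values of 31.6, 35.4 and 38.4, giving a log2 ratio of 0.28 (0.20 to 0.36). *Parva* (Chr 7, 112427505 to 112591692, plus strand) encodes α-parvin, which joins ILK to paxillin and actin. Its FPKM was 6.46, 6.76 and 18.5, from about 408, 600 and 1640 fragments, giving a log2 ratio of 1.52 (1.36 to 1.68) in tw18/tw18 and of 0.07 (-0.12 to 0.25) in tw18/+. It was the lowest of the 10 genes in all 3 libraries and the gene with the largest ratio, 2.86, and 7.49% of the tested genes with a value above 0 in both libraries had a larger one. The ratio of *Ilk* to *Parva* was 7.97 in wild type, 7.01 in tw18/+ and 3.72 in tw18/tw18, while that of *Ilk* to *Lims1* was 1.63, 1.34 and 1.79. The value of *Ilk* is the least certain of the 10: exons of *Taf10*, on the opposite strand, overlap 76.7% of the exon bases annotated to *Ilk*, and although the libraries are described as strand-specific, the strand setting of the quantification is not given in the sources used here. *Taf10* had FPKM values of 102 in wild type, 134 in tw18/+ and 74.8 in tw18/tw18, so its values and those of *Ilk* went in opposite directions.

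Most of the 10 genes have paralogs, and FPKM shows how the families were made up. Of 18 paralogs, 15 reached an FPKM of 1 in tw18/tw18 or wild type. The threshold was passed by 4 of them as higher in tw18/tw18, *Lpp*, *Lims2*, *Fermt3* and *Tgfb1i1*, and by none as lower. The shares of all genes were 15.1% higher and 6.94% lower. *Lims2*, *Fermt3* and *Tgfb1i1* were low in wild type, with an FPKM of 1.29, 0.532 and 0.0479. The median log2 ratio of the 15 paralogs was 0.27. In words of 50 bases, the read length, at most 6.79% of the transcript sequence of *Actn1* and 4.50% of that of *Actn4* occurs in any other gene, much of it in genes outside the α-actinins.

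*Parva* made up 22.1% of the parvin FPKM in wild type, 21.5% in tw18/+ and 42.3% in tw18/tw18. Its paralog *Parvb* had FPKM values of 22.8, 24.3 and 25.1, and *Parvg*, the parvin of blood cells, was listed at 0 in wild type and had 0.391 in tw18/+ and 0.157 in tw18/tw18. The parvin sum was higher in tw18/tw18, 43.7 against 29.2 in wild type, and *Parva* accounted for most of that difference. *Lims1* made up 96.1%, 93.5% and 85.2% of the PINCH sum. *Lims2*, which encodes PINCH-2, had FPKM values of 1.29, 2.46 and 6.67, from about 32, 87 and 236 fragments, giving a log2 ratio of 2.37 (1.86 to 2.97) in tw18/tw18.

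*Tln1* made up 67.1% of the talin sum in wild type, 69.9% in tw18/+ and 75.5% in tw18/tw18, with *Tln2* at an FPKM of 6.69, 5.96 and 8.39. *Fermt2* made up 83.6%, 83.9% and 82.3% of the kindlin sum. The kindlin of epithelia, *Fermt1*, had FPKM values of 5.36, 5.25 and 7.62, and *Fermt3*, the kindlin of blood cells, 0.532, 0.401 and 1.51, the first from about 19 fragments. The shares of the kindlins were thus nearly level while their sum was higher in tw18/tw18. *Actn4*, the other non-muscle α-actinin, was more abundant than *Actn1* in each library, with an FPKM of 114, 124 and 137, and *Actn1* made up 28.2%, 25.3% and 37.1% of the α-actinin sum. The muscle form *Actn3* had FPKM values of 1.53, 2.01 and 0.939.

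*Ptk2b*, which encodes the FAK relative PYK2, had FPKM values of 3.11, 1.57 and 6.10, giving a log2 ratio of 0.97 (0.72 to 1.23) in tw18/tw18. *Tgfb1i1*, which encodes the paxillin relative HIC-5, had FPKM values of 0.0479 in wild type, from about 3 fragments, 2.40 in tw18/+ and 5.52 in tw18/tw18. Its log2 ratio of 6.85 in tw18/tw18 has a counting interval of 5.06 to 8.90 and rests on those 3 fragments. In the zyxin family, *Lpp* had FPKM values of 4.65, 4.72 and 10.8, giving a log2 ratio of 1.22 (1.11 to 1.32). *Trip6* had 38.6, 36.7 and 30.0, *Ajuba* 42.5, 47.4 and 40.9, *Limd1* 12.0, 11.5 and 12.7, and *Wtip* 9.74, 8.36 and 7.31. Unlike *Lpp*, none of *Trip6*, *Ajuba*, *Limd1* and *Wtip*, which also act in Hippo signaling, reached a log2 ratio of 1 in tw18/tw18 in either direction. *Limd1* was slightly higher there than in wild type, and *Trip6*, *Ajuba* and *Wtip* were lower. *Ctnna1*, which encodes the vinculin relative α-catenin of adherens junctions, had FPKM values of 83.7, 72.0 and 78.5.

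**Figure D3:**
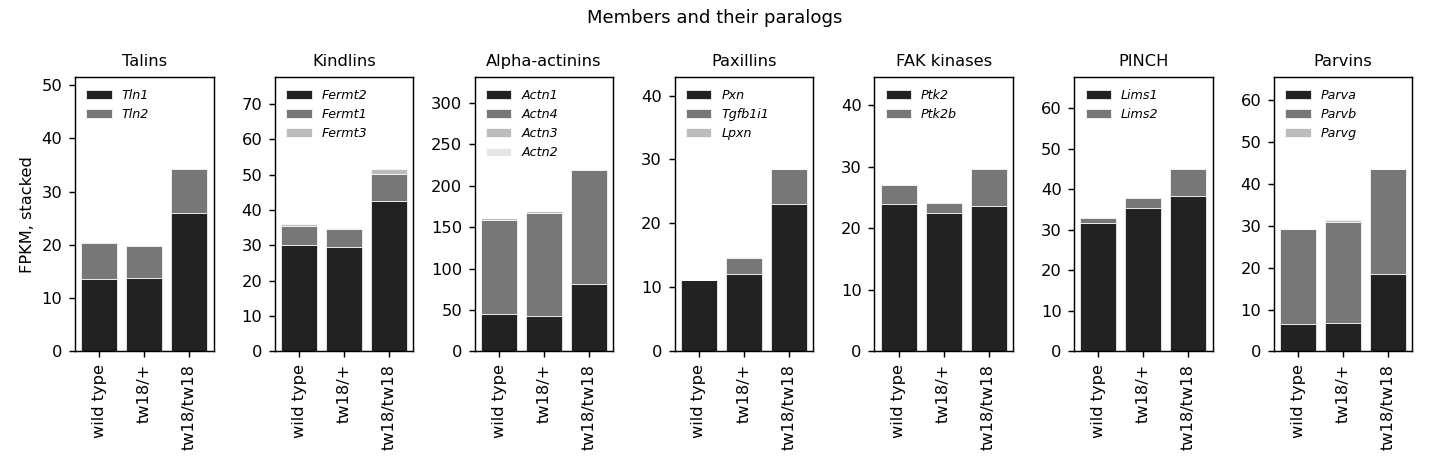
FPKM of 7 of the 10 genes (black) and of their paralogs (grey), stacked per library, with a separate linear axis from 0 for each family and 1 library per bar. The share of *Parva* in the parvins is 22.1% in wild type and 42.3% in tw18/tw18, and the stack of every family shown is highest in tw18/tw18.

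The 10 genes were set beside the wider focal adhesion machinery, whose counts in tw18/tw18 against wild type are to be read beside the 15.1% of all genes called higher and the 6.94% called lower. Of 36 other adaptors and actin linkers, 35 were tested between tw18/tw18 and wild type, and 12 passed the threshold as higher, none as lower, with a median of 0.68. Among those that reached an FPKM of 10 and were also past the threshold against tw18/+, the 6 with the largest ratios were *Tns1*, which encodes tensin-1 (4.66, 6.51 and 21.0 in wild type, tw18/+ and tw18/tw18), *Palld*, which encodes the actin-bundling protein palladin (7.55, 6.65 and 21.3), *Flnc*, the muscle filamin (4.86, 5.31 and 11.8), *Pdlim5* (11.1, 10.7 and 25.1), *Csrp1* (45.8, 49.3 and 103) and *Sorbs2* (15.3, 7.74 and 31.2). Other adaptors were nearly level between the libraries, among them *Vasp* (38.7, 37.4 and 40.1), *Bcar1*, which encodes p130Cas (37.3, 34.0 and 40.3), and *Crkl* (20.9, 22.3 and 20.1), which were picked as examples after their values were seen. Between tw18/+ and wild type, 1 of 34 of these adaptors was higher and none lower, with a median of -0.05. For that pair the shares of all genes were 4.70% higher and 5.02% lower.

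Of 32 kinases and GTPase regulators tested, 2 were higher in tw18/tw18 than in wild type and 2 lower, with a median log2 ratio of 0.02. *Rhob*, a stress-responsive small GTPase, had FPKM values of 15.9, 13.8 and 40.7, giving a log2 ratio of 1.36, and *Pak1*, a kinase downstream of RAC and CDC42, had 18.3, 18.8 and 6.63, giving a log2 ratio of -1.46. The others past the threshold, *Rassf5* (0.425, 0.518 and 1.53) and *Asap2* (13.2, 10.5 and 5.87), lie outside the rule for named genes. *Src* had FPKM values of 11.1, 14.7 and 11.3. The median of this list lay nearer to that of all genes, -0.05, than the median of the adaptors did. Of the 21 integrin subunits, 14 were tested, of which 6 were higher in tw18/tw18 and 2 lower, with a median of 0.59. *Itgb1*, the β chain of most matrix receptors, had FPKM values of 41.6, 41.8 and 47.7, and the subunits past the threshold all had an FPKM under 10.

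Markers of other cell types also differed between the libraries, and their values are given here because focal adhesion genes are abundant in mesenchymal, endothelial and decidual cells. All marker counts in tw18/tw18 against wild type, here and below, are to be read beside the 15.1% of all genes called higher and the 6.94% called lower. Of 14 decidual stroma markers, 12 were higher in tw18/tw18 than in wild type and 1, *Prl8a2*, lower, with a median log2 ratio of 2.12. The sum of the other 13 was an FPKM of 160 in wild type, 167 in tw18/+ and 645 in tw18/tw18. *Prl8a2*, a decidual prolactin, had 1504, 155 and 377, so that with it the sum went the other way, 1664, 322 and 1022. *Des*, which encodes desmin and was also listed for smooth muscle, was the most abundant of the rest, with 45.5, 65.9 and 201. No marker of this list was at 0 in any library.

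Of 10 parietal endoderm markers, 7 were higher in tw18/tw18 and none lower, with a median of 1.04 and a sum of 432, 502 and 979. Of 12 extra-embryonic ectoderm markers, 8 were higher and 1, *Eomes*, lower, with a median of 1.33 and a sum of 125, 108 and 149. *Eomes*, the most abundant of that list in each library, had FPKM values of 77.1, 58.0 and 37.0 and weighs heavily on the sum. The study lists *Eomes* among mesoderm control genes, and *Gata3* and *Hand1* of the same marker list among lateral mesoderm regulators. It also counts *Hand2*, of the decidual list, among those regulators and *Eng*, of the endothelial list, among mesodermal genes. Of 11 endothelial markers tested, of 12 listed, 6 were higher and none lower, with a median of 1.45 and a sum of 64.3, 50.04 and 130. Of 10 smooth muscle markers tested, of 12 listed, 4 were higher and 2 lower, with a sum of 168, 201 and 404, of which *Des* made up the largest part in tw18/tw18, and *Lmod1* was at 0 in wild type and *Actg2* in tw18/tw18. Of 8 immune markers tested, of 12 listed, 4 were higher and none lower, with a sum of 27.0, 18.3 and 56.0, and *Aif1* was at 0 in all 3 libraries. Of the 4 erythroid markers tested, 3 were higher and 1 lower, with a sum of 52.5, 56.3 and 177. The lower one, the α-globin gene *Hba-a1*, had FPKM values of 52.2, 27.1 and 0.007. The other α-globin gene, *Hba-a2*, had 0.0201, 26.9 and 127. How fragments were divided between these α-globin genes was not tested, so their opposite calls are not read as separate changes. *Slc4a1* and the embryonic globins *Hbb-y*, *Hba-x* and *Hbb-bh1* were at 0 in all 3 libraries.

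The markers of the labelled tissue went the other way. All 12 epiblast markers were detected in each library, and 6 were lower in tw18/tw18 than in wild type and none higher, with a median of -0.95 and a sum of 2060, 2201 and 1133. *Pou5f1*, which encodes the pluripotency factor OCT4, had FPKM values of 628, 721 and 274. The 13 visceral endoderm markers, all detected, had a median of 0.41 and a sum of 945, 938 and 1233, with none past the threshold. The part of these tissues in the values of the 10 focal adhesion genes was not tested. In such bulk samples fewer cells of a type and less RNA per cell cannot be told apart, and with 1 library per genotype the make-up of a library and its genotype cannot be told apart either.

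**Figure D4:**
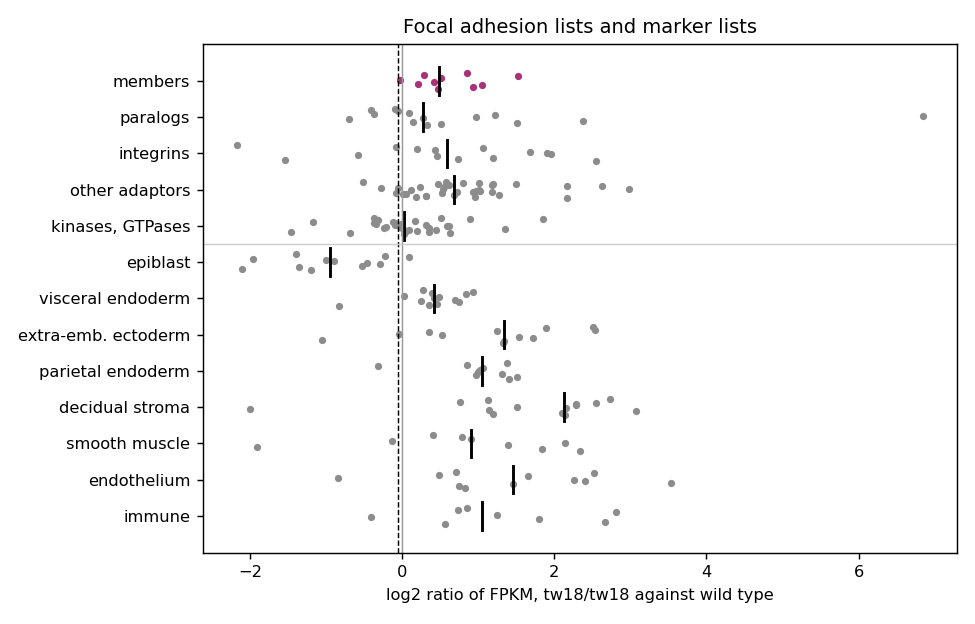
Log2 ratio of FPKM in tw18/tw18 against wild type for each tested gene (points) of the 10 focal adhesion genes (members, colored), of 4 wider focal adhesion lists and of 8 marker lists, with the median of each list as a black bar, the dashed line at the median over 11069 genes and the solid grey line at 0. Genes listed at 0 in either library have no point. The median is 0.49 for the 10 genes, 0.68 for the other adaptors, 0.02 for kinases and GTPase regulators, -0.95 for epiblast markers and 2.12 for decidual stroma markers.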

How the data were processed

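RNA-seq of E6.5 embryos of 3 genotypes, 1 library each, was analysed from the deposited table. The deposited FPKM values, 1 per gene symbol and library, were calculated by the authors with Cuffdiff after alignment by TopHat to the mm10 build, which is GRCm38. The processing notes of the submitters name Cufflinks 2.2.1 and Bowtie 1.0.0. The gene annotation and the library normalization are not given in the sources used here. The genotype of each column was taken from the labels.

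Log2 ratios were computed from deposited FPKM without a pseudocount. A gene was tested where the higher value of the pair was at least 1 and was called at a log2 ratio of at least 1. A gene listed at 0 counted as called where the other value was at least 1, and it has no ratio. No test was possible with 1 library per genotype. List medians are over tested genes with a ratio. Fragments were estimated from the steps of low FPKM values of single-transcript genes, after taking 150 bp off the transcript length, using 243, 476 and 371 low values in wild type, tw18/+ and tw18/tw18. Of these, 72.0%, 68.3% and 65.2% were no further than 0.2 from a whole fragment number, so depth and fragment numbers are approximate. The longest coding transcript of GENCODE M21 gave the length of each gene. Of the listed genes, 2 were found under older symbols (*Tns2* as *Tenc1*, *Arhgap35* as *Grlf1*) and *Hbb-bt* was not found by symbol.

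The 10 genes and all lists were chosen with earlier results of these data known. The named genes were the 10 genes, *Ppp2r1a*, paralogs reaching an FPKM of 1 in any library, genes of the wider lists reaching an FPKM of 10 in wild type or tw18/tw18 that passed the threshold in tw18/tw18 against both other libraries (at most 6 per list), markers with the highest FPKM or listed at 0, and the genes nearest in profile, of which the nearest is given. Some items that this rule names are not reported here. Other genes were named after their values were seen. Alternatives were pseudocounts of 0.1 and 1, 4 rescalings, other filters and thresholds, and tw18/+ as reference. Calls and the depth estimate were tested on simulated data. Python 3.11.15, numpy 2.4.6, pandas 2.3.3, scipy 1.17.1 and matplotlib 3.10.9 were used.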

Additional observations from a re-analysis of the deposited data

How the results depend on the processing

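No paired analysis was possible because each genotype has 1 library. The median log2 ratio of the 10 genes in tw18/tw18 kept its sign under all rescalings and pseudocounts. It moved from 0.49 against wild type to 0.70 with equal FPKM sums and to 0.66 with equal sums without *Lars2*, an alternative chosen after seeing the data, and from 0.54 against tw18/+ to 0.78 and 0.75. The number of the 10 genes higher than in wild type by the threshold moved from 2 to 4 with either rescaling to equal sums, to 3 with equal upper quartiles, to 1 with a pseudocount of 1 or with tw18/+ as reference, to 5 at a log2 threshold of 0.5 and to 0 at a threshold of 2. Against tw18/+ it moved from 1 to 4 with either rescaling, to 2 with equal upper quartiles, to 6 at a threshold of 0.5 and to 0 at 2. *Tln1* and *Actn1* were the genes that passed 1 against wild type with equal sums (1.14 and 1.06).

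The sign of *Ptk2* in tw18/tw18 against wild type reversed under median centring (0.0246), equal sums (0.19), equal upper quartiles (0.0517), equal sums without *Lars2* (0.15) and with tw18/+ as reference (0.0674). That of *Tln1* in tw18/+ reversed with equal sums (-0.0108) and equal sums without *Lars2* (-0.0166).

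The share of all genes called in tw18/tw18 against wild type was 9.50% higher and 4.12% lower with a pseudocount of 1, 6.79% and 3.41% with a filter at 10, and 24.2% and 10.8% without a filter. For tw18/+ against wild type it was 2.12% and 2.31%, 0.527% and 1.01%, and 15.8% and 9.91% in the same order. For tw18/tw18 against tw18/+ it was 9.18% and 2.92% with a pseudocount of 1, 7.27% and 2.66% with a filter at 10, 21.4% and 12.1% without a filter, and 19.8% and 3.67% with equal sums. With equal sums the list medians moved to 0.49 for paralogs, 0.81 for integrins, 0.90 for other adaptors and 0.23 for kinases and GTPase regulators. The cause of these moves was not tested, and leaving out a library was not possible with 1 per genotype. Fragment numbers limit the precision of low genes, as the counting intervals show, and the spread between embryos is unknown.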

Other observations

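Among 5390 other genes that reached an FPKM of 10 in all 3 libraries, the nearest to the median profile of the 10 focal adhesion genes, by the Euclidean distance of the log2 ratios of tw18/+ and tw18/tw18 against wild type, was *Macf1*, at a distance of 0.011. *Macf1*, which encodes a protein that links actin filaments and microtubules, had FPKM values of 14.7 in wild type, 14.6 in tw18/+ and 20.8 in tw18/tw18. With 3 libraries such a profile has few distinguishing features: 57 genes lay within a distance of 0.1, and 729 lay within 0.34, the median distance of the 10 genes themselves.

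A list of 16 genes was drawn up around SRF, the factor of the CArG box. The list holds immediate early and cytoskeletal genes known to use SRF, and also *Srf* itself, *Mkl1* and *Mkl2*. It had 5 genes higher in tw18/tw18 than in wild type and 1 lower, against 15.1% and 6.94% of all genes, with a median log2 ratio of 0.65. Its genes *Acta2*, *Tagln*, *Myl9*, *Cnn1*, *Tpm1* and *Tpm2* are also in the smooth muscle marker list, and among them are 3 of the 5 higher genes (*Acta2*, *Tagln* and *Myl9*) and the lower gene (*Cnn1*). *Acta2*, the smooth muscle actin, had FPKM values of 1.38, 1.37 and 6.995 in wild type, tw18/+ and tw18/tw18, and *Cnn2*, a calponin, 14.9, 16.2 and 31.7. *Srf* itself had 13.5, 15.4 and 13.5, and *Cnn1*, the calponin of smooth muscle, 1.68, 2.35 and 0.446. The actin genes *Actb* and *Actg1*, the most abundant of the list, had 1544, 1536 and 1758, and 1739, 1772 and 1553. The sum of the list was 1.04 times that of wild type in tw18/tw18.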
